A study of Mus musculus with 51 samples.

Results

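The comparison set ventral prostates of mice given RAD001 for 6 or 9 days against ventral prostates of mice given placebo for the same times, with both days pooled. It took in 9 of the 51 arrays of the series: 3 of RAD001 at 6 d, 4 of RAD001 at 9 d, 1 of placebo at 6 d and 1 of placebo at 9 d. Arrays were chosen by their titles and by their place in the smaller of the 2 deposited value tables. All of these mice carried the AKT1 transgene of the FVB-AKT1 line, were 8 to 10 weeks old and ate a standard mouse diet, so no wild type gland entered the comparison. The promoter of the transgene, the RAD001 dose and the route are not given in the sources used here. After the dim probe sets were dropped and 1 probe set was taken per gene symbol, 9345 features remained, of which 8227 had a single symbol. A feature was kept where its 2 placebo arrays differed by at most 0.5 on the log2 scale, which left 8145 features, or 87.2%. The stated aim of the series is to tell markers of drug exposure from markers of response to RAD001.

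RAD001, or everolimus, binds FKBP12 and the complex inhibits mTOR complex 1, a kinase that acts below AKT and couples growth signals to protein, lipid and sugar metabolism. Among the outputs of mTOR complex 1 are the hypoxia-inducible factor HIF-1α, which drives the genes of glycolysis and of adaptation to low oxygen, and the SREBP factors, which drive the genes of sterol and fatty acid synthesis. The ventral lobe of the mouse prostate is a secretory gland, in which luminal epithelial cells sit on basal cells and are wrapped in smooth muscle and connective tissue.

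The letters before the gene start of the 2 glycolysis genes and the 2 other hypoxia targets with the smallest p-values show where the core of a hypoxia response element occurs. Each line holds the 250 bases before the RefSeq start (GRCm38.p6), read 5′ to 3′ on the strand of the gene. Capitals mark ACGTG or GCGTG on either strand, and CACGTG, the E-box, holds ACGTG on both strands.
Pgk1, chrX:106186850-106187099, + strand: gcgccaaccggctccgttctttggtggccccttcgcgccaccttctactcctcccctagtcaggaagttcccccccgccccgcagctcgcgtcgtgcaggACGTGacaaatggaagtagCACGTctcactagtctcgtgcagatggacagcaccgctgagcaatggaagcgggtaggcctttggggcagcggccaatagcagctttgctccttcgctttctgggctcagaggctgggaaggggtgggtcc
Ldha, chr7:46845554-46845803, + strand: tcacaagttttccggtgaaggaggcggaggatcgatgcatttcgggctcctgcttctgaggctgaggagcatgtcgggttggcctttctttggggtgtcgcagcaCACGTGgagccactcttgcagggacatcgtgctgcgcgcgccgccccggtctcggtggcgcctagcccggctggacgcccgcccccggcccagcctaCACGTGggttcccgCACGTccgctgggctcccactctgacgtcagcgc
Ddit4, chr10:59951771-59952020, - strand: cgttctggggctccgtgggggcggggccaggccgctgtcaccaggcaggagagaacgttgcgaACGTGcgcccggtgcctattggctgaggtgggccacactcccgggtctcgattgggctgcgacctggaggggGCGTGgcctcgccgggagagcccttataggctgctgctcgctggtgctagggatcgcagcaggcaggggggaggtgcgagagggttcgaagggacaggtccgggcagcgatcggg
Bnip3, chr7:138909507-138909756, - strand: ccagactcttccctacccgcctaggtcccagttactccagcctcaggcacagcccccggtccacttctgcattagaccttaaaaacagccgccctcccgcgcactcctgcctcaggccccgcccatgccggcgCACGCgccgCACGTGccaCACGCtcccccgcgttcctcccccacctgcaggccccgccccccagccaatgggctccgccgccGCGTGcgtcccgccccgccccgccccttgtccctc

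At least 1 of these cores occurred in the windows of 11 of the 14 glycolysis genes and other hypoxia targets that fell, or 78.6%, against 56.9% of the 6680 tested genes with a window and 38.6% of all 27025 genes with one. ACGTG alone was present in 8 of the 14, or 57.1%, against 22% of the tested genes. Over all genes that fell, either core was present in 22 of 41 windows, or 53.7%, ACGTG in 13 (31.7%) and GCGTG in 17 (41.5%), against 45.7% of the tested genes for GCGTG. In Pgk1 both copies lay close together, with the first bases at -150 and -131 from the gene start. The sterol regulatory element TCACNCCAC occurred in none of the 3 called cholesterol genes that had a window, and in 1.04% of all windows. Fdps, the fourth, had no entry. The forkhead motif GTAAACA occurred in 1 of the 41 windows of all genes that fell (2.44%), against 2.01% of the tested genes, and CACGTG in 4 of the 41 (9.76%), against 8.76%. These matches describe the letters of the windows and nothing more.

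The falls in RAD001-treated glands included 9 genes of glycolysis, 5 other targets of hypoxia-inducible factor, 4 genes of cholesterol synthesis and 3 genes of the lysosome. Of the 47 genes with a single symbol that fell, 21 belonged to the lists of these 4 groups. The lists held 12, 16, 17 and 22 of the 8227 tested genes with a single symbol. They were chosen with earlier results of these data known, so the count is no test of enrichment. Of the 9345 features, 85 (0.91%) passed an adjusted p of 0.05 (limma), 32 higher (0.342%) and 53 lower (0.567%) in RAD001-treated glands, and 942 had an unadjusted p under 0.05. Among the 8145 kept features 71 (0.872%) passed, 20 of them higher (0.246%) and 51 lower (0.626%). With a single symbol there were 17 higher and 47 lower. The falls were also larger: 30 of the 51 were at least 2-fold, against 5 of the 20 rises. Every one of the 71 changed in the same direction on both days, and its 7 RAD001 arrays all lay on the same side of both placebo arrays. Such a separation was met by 8.61% of the kept features on the lower side and 6.16% on the higher side, and by 7.63% and 5.56% of all features. The 71 were chosen on these same arrays, by the pooled change and the placebo gap. Neither the shared direction nor the separation is therefore separate support for them. The median change over all features was 0.00 on the log2 scale.

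The count rests on few placebo glands. Without the placebo 6 d array 28 features passed and 16 of them were kept, and without the placebo 9 d array 21 passed and 18 were kept. Of the RAD001 arrays, leaving out 6 d replicate 1 gave 57 and 41, 6 d replicate 3 gave 50 and 38, 9 d replicate 1 gave 43 and 32, 9 d replicate 2 gave 60 and 47, and 9 d replicate 4 gave 50 and 41. With array medians set equal 68 passed, 33 higher and 35 lower, and 54 of them were kept, 21 higher and 33 lower. The spread in the test came from the RAD001 arrays alone, since each day had 1 placebo array, and each placebo array was taken to vary as they do. The labels call the arrays biological replicates. The medians of the 7 RAD001 arrays ran from 98.1 to 106.9 intensity units, below those of both placebo arrays, 108.1 and 110.4. The main fit did not scale the arrays, so this offset enters the changes, on the side of falls. With medians set equal, lower calls were 8 in glycolysis, 3 in the other hypoxia targets, 4 in cholesterol synthesis and 2 in the lysosome list. RAD001 6 d replicate 1, 6 d replicate 3 and 9 d replicate 3 stood apart, with 812, 348 and 561 probe sets at exactly 0 against 1 to 50 on the other arrays. Their mean correlations with the other arrays were 0.879, 0.905 and 0.849, against 0.924 to 0.943. More features passed without these 3 arrays. They were left out for their low correlation, which by itself tends to lower the spread, and RAD001 6 d then had replicate 2 alone. That count is therefore not given and is no measure of a larger response.

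Glycolysis changed most uniformly. Of 12 tested members of a list of 17, 9 fell and none rose, and the median change was -1.10, against 0.00 for all features. Pgk1, which encodes phosphoglycerate kinase, an ATP-producing enzyme of the lower part of the pathway, had 1579, 1695 and 1777 intensity units as its lowest, median and highest RAD001 values, against 5669 on the placebo 6 d array and 5045 on the placebo 9 d array. All 7 RAD001 arrays lay within a narrow band far below both placebo arrays. The log2 change was -1.66 ± 0.07 (SE, 7 arrays against 2, limma adjusted p = 5.48e-05), a level 3.15-fold lower in RAD001-treated glands. With all probe sets fitted apart, all 3 of Pgk1 passed, with changes of -1.91 to -1.40. Ldha, the subunit of lactate dehydrogenase that favours lactate production, had 1562, 1700 and 1966 units under RAD001, against 4307 and 4378 in the placebo arrays. It fell by 1.33 ± 0.09 (adjusted p = 0.000428).

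The same held along the rest of the pathway. Aldoc, a fructose-bisphosphate aldolase, had 61.1, 82.3 and 107 units under RAD001, against 374 and 372 in the placebo arrays, and fell by 2.20 ± 0.18 (adjusted p = 0.00148). It was the largest fall of the list, on the dimmest of its called probe sets. Tpi1, triosephosphate isomerase, had 840, 951 and 1032 units under RAD001, against 2069 and 2084 under placebo (change -1.12 ± 0.09, adjusted p = 0.00148). Pfkl, the liver-type phosphofructokinase, had 255, 305 and 328 units, against 771 and 651 (change -1.24 ± 0.12, adjusted p = 0.00429). Pgam1, phosphoglycerate mutase, changed by -1.02 ± 0.11, and Pkm, pyruvate kinase, by -1.07 ± 0.12. Hk2, the hexokinase that AKT signalling is known to raise, changed by -1.25 ± 0.19, and Aldoa, the main muscle aldolase, by -0.75 ± 0.11. The adjusted p-values of these 4 ran from 0.00663 to 0.0313. The 3 members that did not pass were Slc2a1, the glucose transporter GLUT1 (-0.72, adjusted p = 0.227), Hk1 (-0.42, adjusted p = 0.277) and Pfkm (-0.16, adjusted p = 0.912). Slc2a1 still had all its RAD001 values, 165 to 293 units, below both placebo values, 378 and 321.

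**Figure D1:**
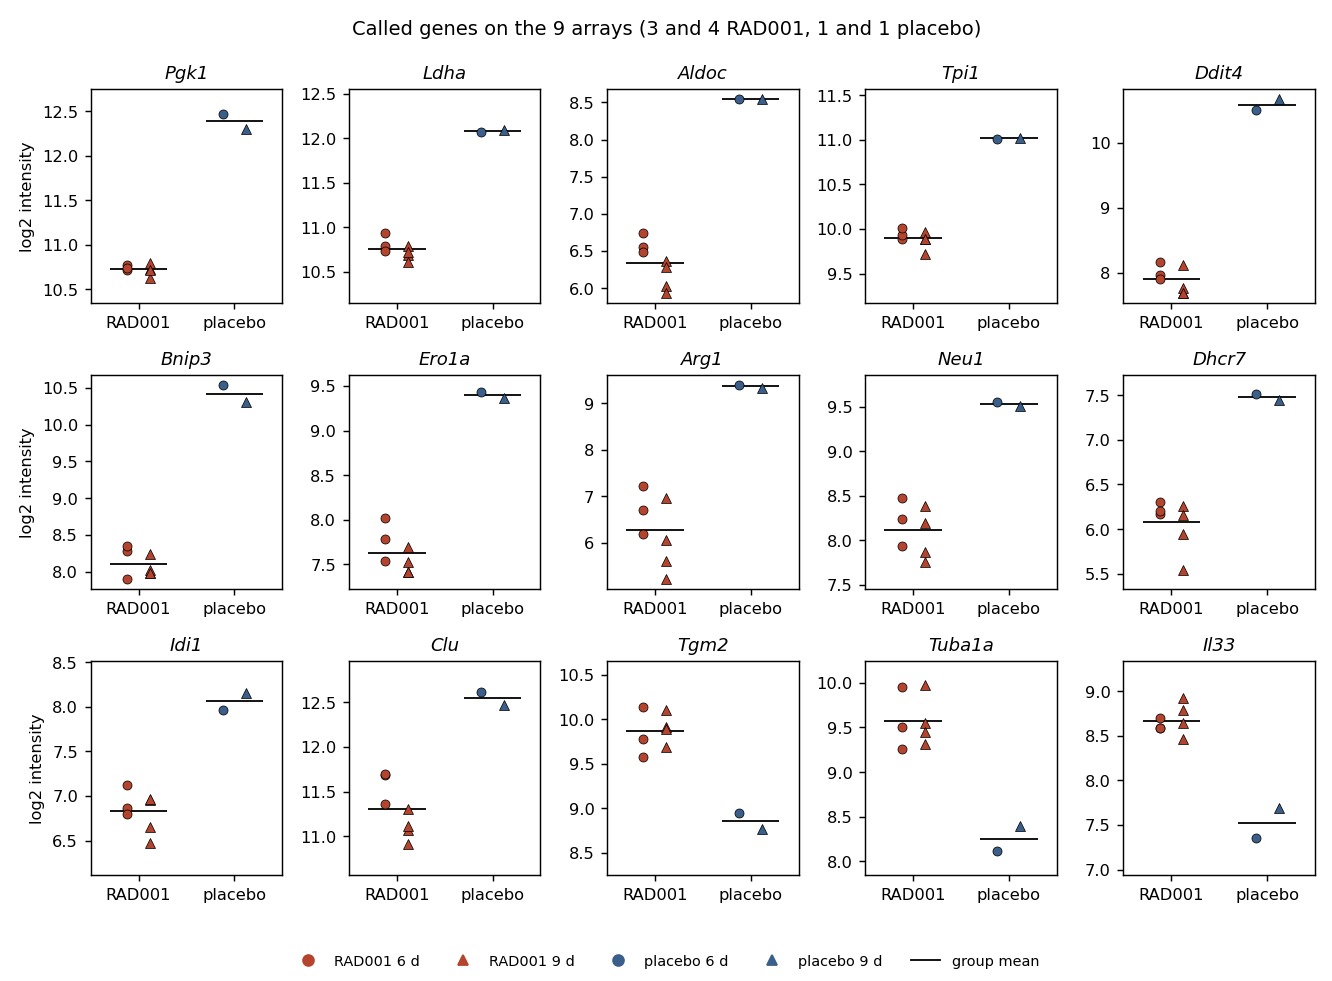
Log2 intensity (y axis) of 15 genes that passed the test, on the 7 RAD001 arrays (red, left) and the 2 placebo arrays (blue, right), with circles for 6 d, triangles for 9 d and a line at each group mean. Each panel has its own range of y values. In every panel the RAD001 points lie on one side of both placebo points, below them in 12 panels and above them for Tgm2, Tuba1a and Il33.

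The hypoxia targets outside glycolysis split into a few strong falls and a larger number of small or unclear changes. Of 16 tested members of a list of 20, 5 fell and none rose, with a median change of -0.47. Of the 16, 13 were kept for placebo agreement, among them the 5. In 10 of them all RAD001 arrays lay below both placebo arrays, as in 7.63% of all features. Ddit4, also called REDD1, an inhibitor of mTOR complex 1 that is induced by low oxygen, had 206, 241 and 288 units under RAD001, against 1449 and 1640 under placebo. It fell by 2.69 ± 0.15 (adjusted p = 0.000211), 6.44-fold, the largest fall after that of Arg1. Bnip3, a mitochondrial protein of mitophagy and cell death, had 239, 260 and 328 units, against 1489 and 1265, and fell by 2.31 ± 0.15 (adjusted p = 0.000428). For both genes every RAD001 value lay far below either placebo value.

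Ero1a, the oxidase that regenerates disulfide bonds in the endoplasmic reticulum, had 170, 185 and 260 units under RAD001, against 690 and 659 under placebo, and with probe sets fitted apart all 3 passed, with changes of -2.01 to -1.77. Fam162a and Higd1a, both mitochondrial proteins induced by hypoxia, changed by -1.16 ± 0.18 (adjusted p = 0.0288) and -0.94 ± 0.16 (adjusted p = 0.0408). Plod2, a lysyl hydroxylase of collagen, came next with 366, 423 and 492 units against 659 and 664 (change -0.66, adjusted p = 0.0843). Vegfa, the angiogenic growth factor, gave no usable value. Its brighter probe set was listed at 0 on the placebo 9 d array and read 304 units on the placebo 6 d array, against 161 to 325 under RAD001. Its other tested probe set changed by -1.25 without passing.

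Leaving out 1 array moved these counts. Glycolysis had 6 to 10 calls, with 6 when either placebo array was left out. The hypoxia targets had 3 to 6, with 3 without either placebo array or without RAD001 9 d replicate 2. Pgk1, Ldha, Aldoc, Tpi1, Pfkl, Ddit4 and Bnip3 were the 7 of 54 called genes examined one by one that passed under every alternative tried, the single days and each array left out included.

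**Figure D2:**
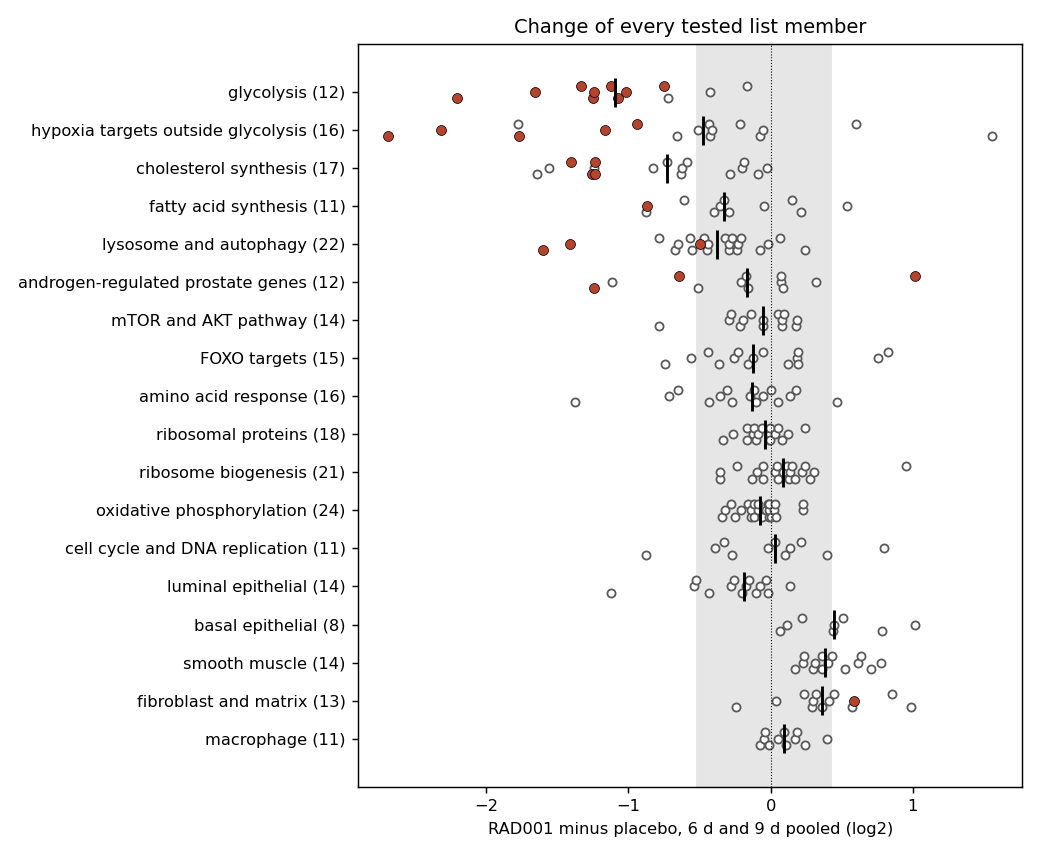
RAD001 minus placebo change (x axis, log2) of every tested member of 18 gene lists, with the number tested in brackets. Filled points passed an adjusted p of 0.05, open points did not, the black bar is the median of a list and the grey band holds the middle 90% of all 9345 features. Glycolysis has the lowest median, and the medians of smooth muscle, basal and matrix markers lie above 0.

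Cholesterol synthesis was lower in RAD001-treated glands in all 17 tested members of a list of 20, but only 4 passed the test. Of the 17, 13 were kept for placebo agreement, among them the 4. The list's median change was -0.73, and 9 members had all RAD001 arrays below both placebo arrays, as did 7.63% of all features. Fdps, farnesyl diphosphate synthase, had 194, 206 and 290 units under RAD001, against 502 and 549 under placebo (change -1.23 ± 0.14, adjusted p = 0.00916). Dhcr7, the last reductase of the pathway, had 46.5, 72.2 and 79.2 units, against 183 and 175 (change -1.40 ± 0.22, adjusted p = 0.0315). Idi1, isopentenyl diphosphate isomerase, had 88.5, 117 and 139 units, against 250 and 286 (change -1.23 ± 0.19, adjusted p = 0.0315). Msmo1, the methylsterol monooxygenase, had 168, 252 and 294 units, against 536 and 629 (change -1.25 ± 0.21, adjusted p = 0.0438). The count was fragile: it was 0 without the placebo 9 d array, 1 without the placebo 6 d array or any single RAD001 array other than 9 d replicate 3, and 7 without that one.

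The neighbouring lipid genes moved less. Of 7 tested genes of sterol sensing, uptake and efflux none passed and the median change was -0.05. Insig2, which holds SREBP in the endoplasmic reticulum, changed by -0.62 (adjusted p = 0.0985), and Srebf2, the SREBP factor of sterol synthesis itself, by -0.05 (adjusted p = 0.957). Of 11 tested genes of fatty acid synthesis 1 passed, Scd2, a stearoyl-CoA desaturase. It had 2978, 3224 and 4124 units under RAD001, against 7502 and 5064 under placebo, and was left out because its placebo arrays differed by 0.57. Fasn, fatty acid synthase, changed by -0.61 (adjusted p = 0.305), and Srebf1 by -0.29 (adjusted p = 0.664).

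Lysosomal genes were lower as a list, with a median of -0.38 over 22 tested members, of which 3 passed the test. In 17 members all RAD001 arrays lay below both placebo arrays, as in 7.63% of all features. Gusb, β-glucuronidase, had 151, 161 and 211 units under RAD001, against 546 and 524 under placebo (change -1.60 ± 0.17, adjusted p = 0.00663), and its other tested probe set changed by -0.95 without passing. Neu1, a sialidase, had 215, 293 and 356 units, against 752 and 726 (change -1.41 ± 0.20, adjusted p = 0.0223). Npc2, the cholesterol carrier of the lysosome lumen, had 1666, 1796 and 1870 units, against 2332 and 2617 (change -0.49 ± 0.08, adjusted p = 0.0365). The structural protein Lamp2 (-0.68, adjusted p = 0.0761) and the hexosaminidase subunit Hexa (-0.65, adjusted p = 0.0796) came next. Left-out arrays took the count of 3 to between 1 and 5, with 1 without either placebo array, RAD001 6 d replicate 3 or RAD001 9 d replicate 1.

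Outside these lists the largest fall was that of Arg1, arginase, which turns arginine into ornithine and urea. It had 37.2, 73.4 and 149 units under RAD001, against 674 and 645 under placebo, a log2 change of -3.08 ± 0.44 (adjusted p = 0.0209) or 8.47-fold. The RAD001 arrays spread widely, and all lay far below the placebo arrays. Fam3b, a secreted cytokine-like protein, fell by 1.86 ± 0.23 (adjusted p = 0.0131), with 56.5 to 96.8 units against 218 and 274. Pklr, the pyruvate kinase known from liver and red cells, had 157 to 276 units, against 739 and 722 (change -1.70 ± 0.18, adjusted p = 0.00663). Naip6, of a family of near-identical inflammasome genes that a probe set may not tell apart, changed by -1.65 ± 0.23 (adjusted p = 0.0204). Ank, a pyrophosphate transport protein, changed by -1.35 ± 0.22 (adjusted p = 0.0341). Ace, angiotensin-converting enzyme, had 343 to 479 units, against 1121 and 796 (change -1.20 ± 0.13, adjusted p = 0.00663). Pigr, the receptor that carries immunoglobulin A across epithelium, was among the brightest of the falls, with 2575 to 3572 units against 6901 and 5018 (change -0.92 ± 0.11, adjusted p = 0.00987). Mt1, a metallothionein, changed by -0.71 ± 0.10 (adjusted p = 0.02).

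Genes of prostate secretion and androgen response did not move as a block. Of 12 tested, 2 fell and 1 rose, and the median change was -0.17. Clu, clusterin, a secreted chaperone that rises in the prostate on castration, had 1920, 2520 and 3317 units under RAD001, against 6289 and 5688 under placebo. It fell by 1.24 ± 0.13 (adjusted p = 0.00477), and with probe sets fitted apart 3 of its 4 passed. Tgm2, transglutaminase 2, had 766, 952 and 1128 units under RAD001, against 492 and 434 under placebo, and rose by 1.02 ± 0.16 (adjusted p = 0.0319). Its 5 probe sets, fitted apart, ranged from 0.16 to 1.29 and 3 passed. Azgp1, a secreted zinc-binding glycoprotein, fell by 0.64 ± 0.11 (adjusted p = 0.0482). Only 1 of the 9 fits that left out an array kept its call, and it did not pass with all probe sets fitted apart. Pbsn, probasin, the major androgen-driven secretory protein of the mouse prostate, had 3369, 4412 and 5483 units under RAD001, against 4136 and 4212 under placebo, so its groups overlapped (change 0.07, adjusted p = 0.945).

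Most of the rises were below 2-fold. Tuba1a, an α-tubulin, had 614, 729 and 1009 units under RAD001, against 276 and 335 under placebo, and rose by 1.32 ± 0.21 (adjusted p = 0.0362). Tubb5, a β-tubulin, rose by 0.73 ± 0.13 (adjusted p = 0.0449), with 528 to 724 units against 389 and 391. Il33, a nuclear cytokine released by damaged barrier cells, had 353, 399 and 485 units, against 164 and 206 (change 1.15 ± 0.14, adjusted p = 0.0121). Each of these genes had no RAD001 value as low as its higher placebo value. The signalling genes Wnt4, a secreted ligand, and Notch1, a receptor, rose by 0.99 ± 0.15 and 0.95 ± 0.16 (adjusted p = 0.0313 and 0.0433). Derl3, a factor of protein export from the endoplasmic reticulum for degradation, rose by 0.96 ± 0.17 (adjusted p = 0.0462), but none of the 9 fits that left out an array kept its call. Atp6v1c2, a subunit of the vacuolar proton pump, rose by 0.89 ± 0.12, and the actin-binding proteins Tmsb10, Pdlim2 and Limch1 rose by 0.81 ± 0.14, 0.76 ± 0.09 and 0.72 ± 0.10. Cst3, the protease inhibitor cystatin C, rose by 0.70 ± 0.11. Nop53, a ribosome assembly factor, and Tspo, a protein of the outer mitochondrial membrane, rose by 0.66 ± 0.11 and 0.61 ± 0.11. Adjusted p-values of these 7 ran from 0.00987 to 0.0447.

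Rsad2, the antiviral protein viperin, passed on values that allow no fold. It was listed at 0 on both placebo arrays and read 159 to 369 units under RAD001 (adjusted p = 0.00429), and its other tested probe set changed by 0.23 without passing. Of 14 tested interferon-induced genes none other passed. Ifit2 changed by -1.27 (adjusted p = 0.0783) and Ifit1 by -0.86 (adjusted p = 0.141).

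No member passed in 13 of the 22 pathway lists. The drug's own pathway was one of them, with 14 genes tested and a median change of -0.05. Akt1 had 638, 672 and 758 units under RAD001, against 831 and 608 under placebo (change -0.05, adjusted p = 0.945), and the transgene was not measured apart from it. Mtor had 203 to 278 units, against 220 and 205 (change 0.08), and Eif4ebp1, the translation repressor that mTOR phosphorylates, 796 to 1344 units, against 1323 and 1094 (change -0.28). The 18 ribosomal and elongation factor genes had a median change of -0.04, the 21 genes of ribosome biogenesis 0.09, the 24 genes of oxidative phosphorylation -0.07 and the 11 genes of cell cycle and DNA replication 0.03. The 16 genes of the amino acid response had a median of -0.13, the 18 endoplasmic reticulum chaperones -0.03 and the 15 FOXO targets -0.12. With all probe sets fitted apart, 1 of the 2 of Asns, of the amino acid response, passed, with changes of -0.86 and -0.43. At 48 h 2 of the 16 genes of that list fell and none rose, and the counts at 15 d were the same. Array levels say nothing of protein or phosphorylation.

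Markers of cell types shifted too. Smooth muscle markers summed to between 15650 and 22046 units on the 7 RAD001 arrays, against 14778 and 13545 on the placebo arrays, and matrix and fibroblast markers to between 8147 and 11242, against 6981 and 6450. Basal epithelial markers summed to between 2055 and 3316 units under RAD001, against 1847 and 1479 under placebo. These 3 sums did not overlap between the groups, also when each array was scaled to the same median. Luminal markers summed to between 17513 and 22194 units, against 23698 and 22998, and this separation was lost with equal medians, at up to 22605 against 22496 and 22294. Of 14 smooth muscle markers 0 passed and 7 had all RAD001 arrays above both placebo arrays. For basal markers the counts were 0 and 5 of 8, and for luminal markers 0 passed and 5 of 14 lay below. Of all features, 5.56% lay above both placebo arrays in this way and 7.63% below. Of 13 matrix markers Dcn, the proteoglycan decorin, rose by 0.58 ± 0.09 (adjusted p = 0.0312), with 2825 to 3428 units against 2021 and 2093.

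Macrophage markers overlapped, at 2012 to 3646 units under RAD001 against 2237 and 2295, and so did endothelial, lymphocyte, neutrophil, adipocyte, skeletal muscle, red blood cell and seminal vesicle sums. The seminal vesicle sum reached 146 units at most over 6 genes, of which Svs3a, Svs4 and Svs6 were under 16 units on most arrays. Adipoq, Cxcr2, Cd2, Cd4, Cd8b1 and Hba-a1 were likewise under 16 units on most arrays. Among the luminal markers Spint1 changed by -1.12, Krt19 by -0.54, Cd24a by -0.52, Epcam by -0.43, Krt8 by -0.17 and Krt18 by -0.03, with adjusted p-values of 0.0891 or more. In bulk tissue fewer cells of a type and less RNA per cell cannot be told apart, and the part of these markers in the falls and rises was not tested.

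**Figure D3:**
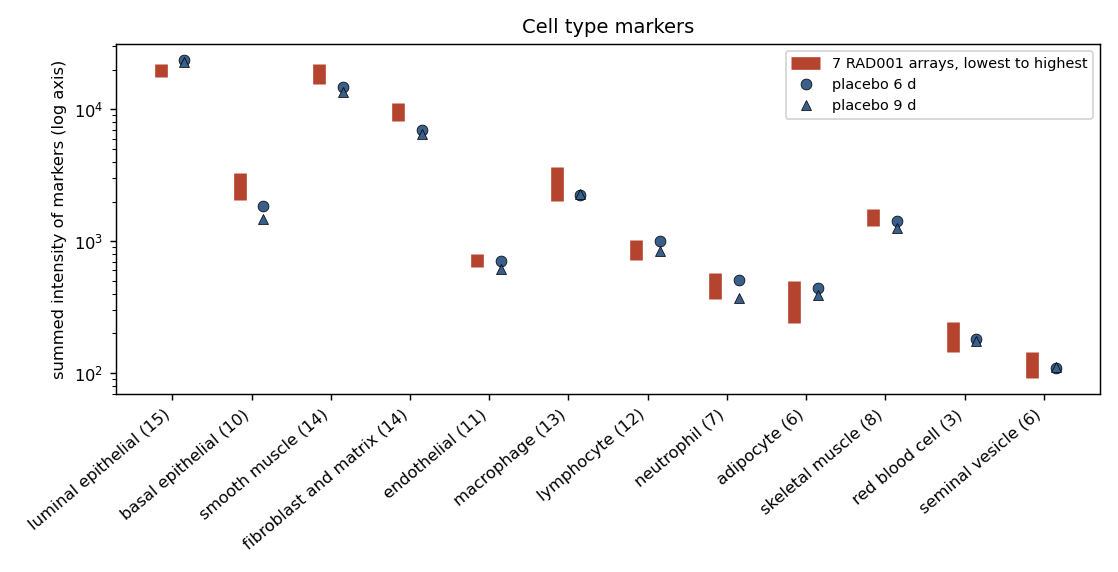
Summed intensity of the markers of 12 cell types (y axis, log scale), with the number of markers in brackets. Red bars run from the lowest to the highest of the 7 RAD001 arrays, and blue symbols are the placebo arrays at 6 d (circle) and 9 d (triangle). Smooth muscle, matrix and basal sums lie above both placebo values on every RAD001 array, and macrophage sums overlap.

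RAD001 was also set against placebo at 48 h (4 RAD001 and 5 placebo arrays) and at 15 d (6 and 7) in the larger table, whose arrays are listed under another array design and were scaled apart, so that only the changes stand side by side and no difference between times was tested. No array is shared with 6 d or 9 d. Of the 51 kept features that fell at 6 and 9 d, 46 were lower at 48 h and 43 at 15 d. Of the 51, 16 (31.4%) fell at 48 h by the same test, against 1.53% of all features there, and 24 (47.1%) fell at 15 d, against 3.26%. None rose at 48 h and 2 rose at 15 d. These fits took same-numbered arrays as unpaired. With a replicate block, fitted on the compared arrays alone, calls over all features went from 341 to 32 at 48 h and from 556 to 66 at 15 d. The overlap is not given for that fit. Many values of that table are exactly 0 where the same gene is bright on other arrays. With exact zeros taken as missing, a choice made after seeing the data, 30 (58.8%) fell at 48 h, against 2.33% of all features, and 39 (76.5%) at 15 d, against 4.41%. Of the 20 that rose, 4 (20%) also rose at 48 h, against 2.02% of all features, and 9 (45%) at 15 d, against 2.51%. With zeros missing these counts were again 4 and 9, against 2.89% and 3.02%. In the opposite direction, with zeros missing, Rsad2 and 1 feature without a symbol fell at both times, and Pklr, on another probe set, rose at 15 d.

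Of the 12 glycolysis genes 7 fell at 48 h and 7 at 15 d with the values as deposited, with medians of -0.82 and -0.46. With zeros as missing 11 fell at 48 h and 10 at 15 d, with medians of -0.85 and -0.88. At 6 and 9 d the median was -1.10. Pkm at 15 d, with 3 arrays at 0, changed by 2.24 as deposited (adjusted p = 0.175) and by -1.05 with zeros missing. Pgk1 changed by -0.98 ± 0.15 at 48 h, -1.66 ± 0.07 at 6 and 9 d and -1.21 ± 0.12 at 15 d, with zeros missing at 48 h and 15 d. Ldha was listed at 0 on 1 of the compared arrays at 48 h and on 1 at 15 d, and with those missing changed by -0.86 ± 0.15 and -0.97 ± 0.12, but by 0.80 and 0.16, with neither passing, when zeros entered at the floor. Bnip3 needed no such choice, at -1.41 ± 0.18, -2.31 ± 0.15 and -1.83 ± 0.15 at 48 h, 6 and 9 d and 15 d. Ddit4 was at 0 on 5 of the 15 d arrays: its 15 d change was -1.38 ± 0.18 with zeros missing and 2.73 with zeros at the floor, and passed in opposite directions (adjusted p = 3.24e-06 and 0.00816). None of its 48 h arrays was at 0, and its 48 h change was -2.07 in both fits, with an SE of 0.79 as deposited (adjusted p = 0.152) and of 0.15 with zeros missing (adjusted p = 1.05e-11).

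Some genes had no change of similar size early. With the values as deposited, Clu changed by 0.12 at 48 h (adjusted p = 0.867), -1.24 at 6 and 9 d and -1.23 at 15 d (adjusted p = 1.68e-06). Azgp1 changed by 0.03, -0.64 and -0.62 at the same times, and passed at 6 and 9 d and at 15 d. Tubb5 changed by -0.11, 0.73 and 0.66, passing at the later 2. Il33 changed by 0.12 at 48 h and 0.32 at 15 d with zeros missing, neither passing, against 1.15 at 6 and 9 d. Fdps, by contrast, passed at each time, the early one included. It changed by -1.37 ± 0.20 at 48 h, -1.23 ± 0.14 at 6 and 9 d and -0.65 ± 0.16 at 15 d, with zeros missing at 48 h and 15 d. Rsad2, at 0 in the placebo arrays of 6 and 9 d, had changes of -0.52 and -0.67 at 48 h and 15 d, the opposite direction. It passed at 15 d (adjusted p = 0.00153), and with zeros missing it passed at 48 h too.

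**Figure D4:**
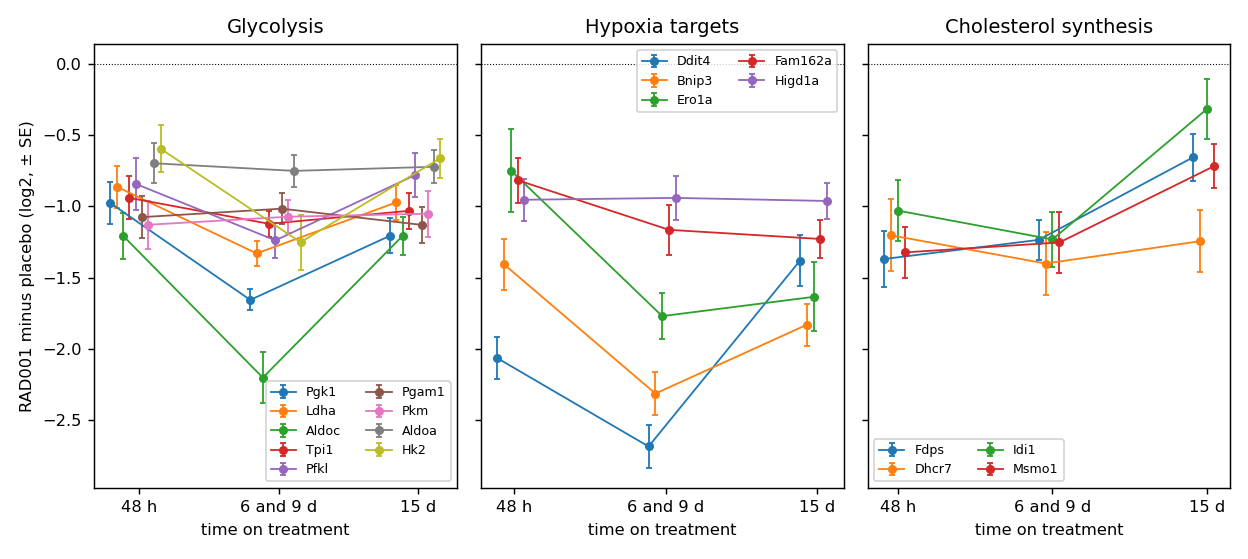
RAD001 minus placebo change (y axis, log2, bars ± SE) at 48 h, at 6 and 9 d pooled and at 15 d of the called glycolysis, hypoxia and cholesterol genes, with exact zeros as missing at 48 h and 15 d. All 18 genes lie below 0 at each time; the 48 h and 15 d points come from other arrays, scaled apart from those of 6 and 9 d.

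The limit on placebo agreement removed 1200 features, of which 14 (1.17%) had passed. Just inside it lay Pgam1, Pigr and Ace, whose placebo arrays differed by 0.37, 0.46 and 0.49, and just outside it Igfbp4, Agrn and Scd2, at 0.54, 0.55 and 0.57. Igfbp4, a binding protein of insulin-like growth factors, had 536, 708 and 791 units under RAD001, against 456 and 313 under placebo. Agrn, the matrix proteoglycan agrin, had 648, 723 and 787 units, against 502 and 343. Both thus had RAD001 values above both placebo values in spite of the gap. In 8 of the 14, 1 placebo array was listed at exactly 0. Sil1, a cochaperone of the endoplasmic reticulum, was at 0 on the placebo 6 d array and read 820 units on the placebo 9 d array, within the 734 to 947 units of the RAD001 arrays. Mt3, a metallothionein, was at 0 and 816 units, against 654 to 1220 under RAD001, and Pla2g12a, a phospholipase, at 509 and 0 units, against 358 to 526. For such genes the pooled contrast set RAD001 against the mean of a measured value and a 0, and no fold is given.

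**Figure D5:**
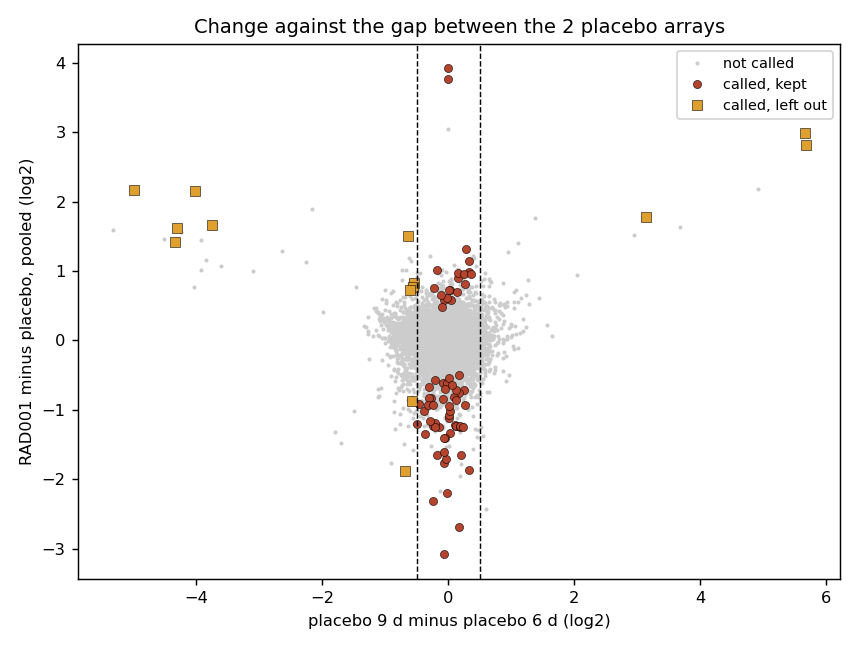
RAD001 minus placebo change, pooled (y axis, log2), against the placebo 9 d minus placebo 6 d difference (x axis, log2) for the 9345 features. Dashed lines mark the limit of 0.5, red points passed and were kept, and orange squares passed and were left out. The squares furthest from 0 on the x axis are features listed at 0 on 1 placebo array, and the 2 red points at the top are at 0 on both.

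The days were also set against each other, as the RAD001 effect at 9 d minus that at 6 d. Of 9345 features 9 (0.0963%) passed, 6 of them with a more positive effect at 9 d, and 160 had an unadjusted p under 0.05. None of the 71 kept and called features was among them. The placebo gap is part of this contrast and was limited in those 71, so their absence is no test of agreement between days. Of the 9, the 3 with the smallest p were Sil1 (-5.80), Slc28a3, a nucleoside transporter (4.23), and Mt3 (-5.80). Each of the 9 was listed at 0 on 1 placebo array, so that none compares 2 measured placebo levels.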

How the data were processed

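Affymetrix arrays measured RNA of mouse ventral prostate, and each array is labelled a biological replicate. The deposited values are linear intensities per probe set, as the authors' value tables give them; the software and scaling are not given in the sources used here. Precision is limited by how few arrays each group has. Of 22626 probe sets, 20380 have 1 gene symbol, 691 several and 1555 none. Intensities under 16 were set to 16 and taken to log2, probe sets under the 40th percentile of mean level were dropped, and the brightest probe set stood for each symbol. limma 3.58.1 in R 4.3.3 fitted 4 group means (RAD001 and placebo at 6 d and 9 d) and let the prior variance follow the level. Benjamini-Hochberg adjustment ran over all 9345 features, with a threshold of 0.05. The contrast was the mean of 7 RAD001 arrays minus that of 2 placebo arrays, and the limit on placebo agreement was applied after the fit. The fit was also run on simulated data with normal noise. There the placebo arrays varied as the RAD001 arrays do and no exact zeros were set, so that run cannot test either point.

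The members and lists were chosen with earlier results of these data known. Named genes were the 15 largest falls and rises among kept calls, the 4 lowest p-values in every list, a set of pathway genes, the genes around the placebo limit and the 3 smallest p of the day difference. Pfkl, Pkm, Aldoa, Hk2, Hk1, Pfkm, Fam162a, Higd1a, Plod2, Hexa, Srebf1, Srebf2, Krt8, Krt18 and Spint1 were added after their values were seen. The larger table was fitted apart in the same way. Alternatives changed the filter, floor, scaling, probe sets, weights, design and arrays. Promoter windows came from RefSeq, the first listed per gene.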

Additional observations from a re-analysis of the deposited data

Results flagged for a closer look

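Of 161 genes examined, those named here had 1 RAD001 array far from the other 6, by a gap past the limit of Dixon's test for 7 values. Such a gap arises by chance in about 1 of 20 groups, so several are to be met among 161 genes. The gap as a share of the range was 0.58 for Asns (RAD001 9 d replicate 2), 0.575 for C1qa and 0.697 for Cd3e (both 6 d replicate 3), 0.584 for Fabp4, 0.731 for Ighm and 0.806 for Retn (all 9 d replicate 3), 0.573 for Limch1 (9 d replicate 4), 0.58 for Mtor and 0.666 for Psat1 (both 6 d replicate 1) and 0.57 for Tubb5 (6 d replicate 2). Limch1 and Tubb5 were among the rises, and none of the others was called.

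The RAD001 effect at 9 d minus that at 6 d passed limma's test for 9 features. The difference was -5.80 for Sil1, 4.23 for Slc28a3, -5.80 for Mt3, 4.95 for Pla2g12a, 4.35 for a feature without a single symbol, 4.07 for Scgb1b27, -3.37 for Ahr, 3.73 for Rgs11 and 3.35 for another feature without a single symbol. Each of the 9 was listed at 0 on 1 of the 2 placebo arrays.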

How the results depend on the processing

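Against 85 features called and 71 kept and called, array weights gave 198 and 167, no intensity trend 45 and 36, 2 groups without day 115 and 109, 6 d alone 14 and 11, 9 d alone 28 and 16, and omission of the arrays with many zeros 138 and 103. Added after seeing the data, omission of the 3 arrays least correlated with the others gave 391 and 308, and exact zeros as missing 118 and 104. Leaving out 1 array gave 21 to 112 calls, 16 to 88 of them kept. Totals under the other filters, floor, scalings, separate probe sets, treatment plus day and equal days stayed within 1.5 times, but lower calls were 89 with no filter, against 53, and kept lower calls 33 with median scaling, against 51. The day difference, 9 calls, had 16 without the arrays with many zeros and 5 to 14 with 1 array left out. Calls at 48 h, 341, were 147 to 398 with 1 array left out and 32 with a replicate block. Calls at 15 d, 556, were 372 to 719, 337 without the arrays with many zeros and 66 with a replicate block. Deviations of same-numbered arrays correlated at -0.08 to 0.05 at 48 h. At 15 d they correlated at 0.39 and 0.48 for replicates 1 and 2, and at 0.07 and -0.01 for replicates 4 and 6. The labels name no pairs, and the main fits took the arrays as unpaired, which the 15 d values for replicates 1 and 2 do not bear out. No paired analysis was possible because each day of 6 d and 9 d has 1 placebo array. The change turned negative for Pla2g12a at 6 d alone (-0.30) and without placebo 9 d (-0.32, against 4.67 without placebo 6 d), for Sil1 at 9 d alone (-0.082) and without placebo 6 d (-0.029, against 5.65 without placebo 9 d) and for Slc28a3 at 6 d alone (-0.49) and without placebo 9 d (-0.53, against 3.78 without placebo 6 d). Each of the 3 genes was listed at 0 on 1 placebo array. Of 54 called genes examined, 12 passed with every array left out in turn. The cause of the other shifts was not tested.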
